A study of Mus musculus with 10 samples.

Results

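The 10 genes described here encode contractile and energy proteins of fast skeletal muscle: the troponin subunits Tnni2, Tnnt3 and Tnnc2, the actins Acta1 and Actc1, the myosin light chains Myl1 and Mylpf, the myosin heavy chain Myh1, titin (Ttn) and muscle creatine kinase (Ckm). They were taken by symbol from single-cell RNA sequencing of the mouse supraspinatus tendon enthesis, the site where a shoulder tendon joins bone. All 10 were found among the 31053 genes of the droplet files and the 55453 of the plate files. The set was chosen by measured values of these libraries: counts of Tnni2 were seen both beside the other muscle genes and in cartilage cells with Matn1. The joint detection of Tnni2 with Acta1, Ckm and Matn1 is therefore a description and carries no test.

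The study had 10 libraries, each of 1 age in 1 assay. For droplets, entheses pooled by age came from C57BL/6 wild types on postnatal day 11 (P11), day 18 (P18) or day 56 (P56), and live cells sorted as negative for the leukocyte protein Cd45 were profiled. Another 7 libraries, each a plate with 96 wells, came from Gli1CreERT;Ai14 animals: P7, P11 and P14, then P18 and P21, then P28 and P42. In these mice a tamoxifen-activated Cre made from Gli1, a Hedgehog pathway gene, switches on a red reporter. These mice received tamoxifen at P5 and P7, entheses were again pooled, and the plates are called Gli1-lineage after their titles. The wording of the sort does not settle whether red wells were the ones kept, and it does not list P14. With 1 library per age and assay, ages could not be tested in the droplets, and intervals below cover counting error only.

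In a muscle fibre, myosin heavy chains with their light chains pull on actin filaments, and the troponin complex on those filaments makes this depend on calcium: Tnnc2 binds calcium, Tnni2 is the inhibitory subunit and Tnnt3 ties the complex to tropomyosin. Titin spans the sarcomere as a spring, and creatine kinase restores ATP from phosphocreatine. Muscle lies next to the tendon, and these transcripts are so abundant in fibres that small amounts of fibre RNA can be read in other cells of a suspension.

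After filtering, 2882, 5163 and 4920 droplet cells remained at P11, P18 and P56, with 41028603, 48430411 and 36151128 transcript molecules (UMIs). Kept plate wells numbered 96, 95, 94, 94, 93, 89 and 86 in order of age, with 235722 to 506912 counts per plate. Droplet libraries shared 4, 6 and 9 cell barcodes pairwise. Despite the Cd45-negative sort, 479 cells at P11 and 2869 at P18 were immune-like by their markers. These counts leave out unnamed clusters led by lymphocyte genes such as Iglc1 and Igkc (5 and 671 cells) or Trbc2 and Cd3g (15 and 154).

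Tnni2 lies on GRCm38 chromosome 7 at 142441808 to 142444410 on the plus strand and overlaps no annotated gene. Tnnt3 follows on the same strand at 142498836 to 142516009, 54425 bases further on, with only the protein-coding gene Lsp1 between them. Of the others, Mylpf (127208890 to 127214298) and Ckm (19404776 to 19422841) are also on chromosome 7. Tnnc2, Ttn and Actc1 are on chromosome 2, Myl1 on chromosome 1, Acta1 on chromosome 8 and Myh1 on chromosome 11. Antisense or other transcripts are annotated across Tnnt3, Tnnc2, Acta1, Ckm, Myh1, Ttn and Actc1, and whether counting used strand is not given in the sources used here, so reads of those partners cannot be told apart from the gene's own.

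Promoter windows from RefSeq (GRCm38.p6) matched 8 of the 10 genes, all but Tnni2 and Tnnt3. The 3 windows of 250 bases before the start site that touch no annotated exon are shown, because they belong to a gene near 0 in cartilage (Acta1), one also read in a Myod1-led cluster (Ttn) and one also read in immune-like cells (Mylpf). Acta1 is at chr8:123894776-123895025 on the minus strand, Ttn at chr2:76982548-76982797 on the minus strand and Mylpf at chr7:127211358-127211607 on the plus strand, inside the annotated span of that gene. Capitals mark an E-box (CANNTG, the site class bound by MyoD-type factors), a CArG box (the serum response factor site) or a MEF2 site, each searched on both strands, or TATAAA on the gene's strand.
Acta1: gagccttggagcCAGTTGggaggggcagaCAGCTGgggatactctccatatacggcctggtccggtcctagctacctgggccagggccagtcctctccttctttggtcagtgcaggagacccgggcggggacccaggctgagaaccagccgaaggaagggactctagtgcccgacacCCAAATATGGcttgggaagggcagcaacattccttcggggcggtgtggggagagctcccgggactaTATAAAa
Ttn: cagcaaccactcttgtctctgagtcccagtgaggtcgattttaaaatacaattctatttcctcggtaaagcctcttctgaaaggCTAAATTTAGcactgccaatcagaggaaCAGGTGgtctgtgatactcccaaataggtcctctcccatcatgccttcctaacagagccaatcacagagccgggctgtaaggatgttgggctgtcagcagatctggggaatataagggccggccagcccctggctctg
Mylpf: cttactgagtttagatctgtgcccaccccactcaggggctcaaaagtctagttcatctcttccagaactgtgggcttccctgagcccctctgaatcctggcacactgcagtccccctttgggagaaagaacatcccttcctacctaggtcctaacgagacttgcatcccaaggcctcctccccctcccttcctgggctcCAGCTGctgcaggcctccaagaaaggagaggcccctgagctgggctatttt
The Acta1 window held E-boxes starting 238 and 221 bases before the start site, a CArG box at 73 and TATAAA at 7. In the Ttn window a MEF2 site began at 166 and an E-box at 138. The Mylpf window held 1 E-box, at 51. Among 32851 RefSeq promoter windows of the same length, 66.2% held an E-box, 1.47% a CArG box, 2.92% a MEF2 site and 7.59% TATAAA. A match of letters is not a bound site.

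Among droplet barcodes, transcripts of the set came mostly from a cluster led by Acta1, Ckm and Tnnc2 that carried 8 of 8 skeletal fibre markers. It held 1 barcode at P11, none at P18 and 62 at P56, which is 1.26% of the P56 cells. The P11 barcode had 28579 UMIs, of which the 10 genes made up 30.3%. At P56 the fibre-like barcodes had a median of 2734 UMIs (1278 to 30070) against 6094 in the other cells, and the 10 genes made up 9.84% to 37.9% of UMIs, about as much at the median as in the P11 barcode. Mitochondrial transcripts made up a median of 0.0559% in them and 3.91% in the other P56 cells, and 0.0350% in the P11 barcode against 5.52%. Among heavy chains, Myh4, the fastest type, had 115 UMIs in the P11 barcode and 263 over the 62 at P56. Myh1 had 57 and 88 UMIs there, while Myh2, Myh7 and the developmental Myh3 and Myh8 had 0 in both. The slow troponins Tnni1 and Tnnc1 also had 0, and the slow troponin Tnnt1 had 2 UMIs in the P11 barcode.

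Levels are given in CPM, the UMIs of a gene scaled to a common library total. Tnni2 reached 56.0 CPM (95% Poisson interval 53.8 to 58.4) over all kept cells at P11, 57.0 (54.9 to 59.1) at P18 and 216 (211 to 220) at P56. Without the fibre-like barcodes these became 39.5, 57.0 and 2.06 CPM. At P56, 7717 of its 7791 UMIs were in the 62 fibre-like barcodes, and at P11 1 barcode held 679 of 2299. So the high adult level of Tnni2 was a level of fibre-like barcodes. The P18 library had no such barcode, so leaving them out could not change its level.

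Acta1, the actin of skeletal fibres, took a different course: 63.2 CPM at P11, 0.103 at P18 and 641 at P56, or 10.7, 0.103 and 10.1 without the fibre-like barcodes. The P18 library held 5 Acta1 UMIs in all kept cells against 2759 of Tnni2. Ckm fell to 24 UMIs (0.496 CPM) there, from 27.4 CPM at P11 and 272 at P56. The fast light chain Myl1 and the calcium-binding Tnnc2 had 1 UMI each at P18, against 28.9 and 26.2 CPM at P11 and 144 and 278 at P56. Myh1 and Actc1 had 0 UMIs at P18, where 3 UMIs would be 0.0619 CPM. Titin had 1.68, 0.0619 and 3.73 CPM at the 3 ages.

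Tnnt3 and Mylpf kept some signal at P18, with 112 and 259 UMIs. Tnnt3 measured 28.1, 2.31 and 293 CPM in age order, and Mylpf 48.5, 5.35 and 311. Between P11 and P18, 9 of the 10 genes were at least 4-fold lower in all kept cells, as were 8.87% of the 13725 genes with at least 100 UMIs, and 0 were at least 4-fold higher (5.53% of all genes). Between P18 and P56 the same 9 were at least 4-fold higher, as were 10.3% of all genes. Between P11 and P56, 6 were at least 4-fold higher (2.19% of all genes) and Actc1 was at least 4-fold lower (7.99%). The exception between P11 and P18 was Tnni2, with a log2 ratio of 0.02 beside a median of -5.37 over the set and -0.17 over all genes. Each age was 1 library, so these counts compare libraries, and the number of fibre-like barcodes moved with them.

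With fibre-like barcodes left out, 8 of the 10 genes had at least 100 UMIs. At P18 4 of these 8 (Tnnc2, Myl1, Acta1 and Actc1) were at least 4-fold lower than at P11, beside 8.71% of all genes, and 0 were at least 4-fold higher (5.54%). From P18 to P56, 5 (Tnnc2, Myl1, Acta1, Ckm and Actc1) were at least 4-fold higher (10.1% of all genes), and Tnni2 was 27.6-fold lower (11.5% were at least 4-fold lower). Tnni2 and Actc1 were lower at P56 than at P11, by log2 ratios of -4.26 and -4.43, where 8.04% of genes were at least 4-fold lower. Of 2759 Tnni2 UMIs at P18, 1778 and 779 lay in the cartilage clusters led by Matn1 and Ibsp, described below. These clusters had 162 and 122 cells at P11, 399 and 357 at P18, and 0 and 16 at P56. The Tnni2 ratios to P56 therefore move with the number of such cells, and a change within cells was not tested.

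**Figure D1:**
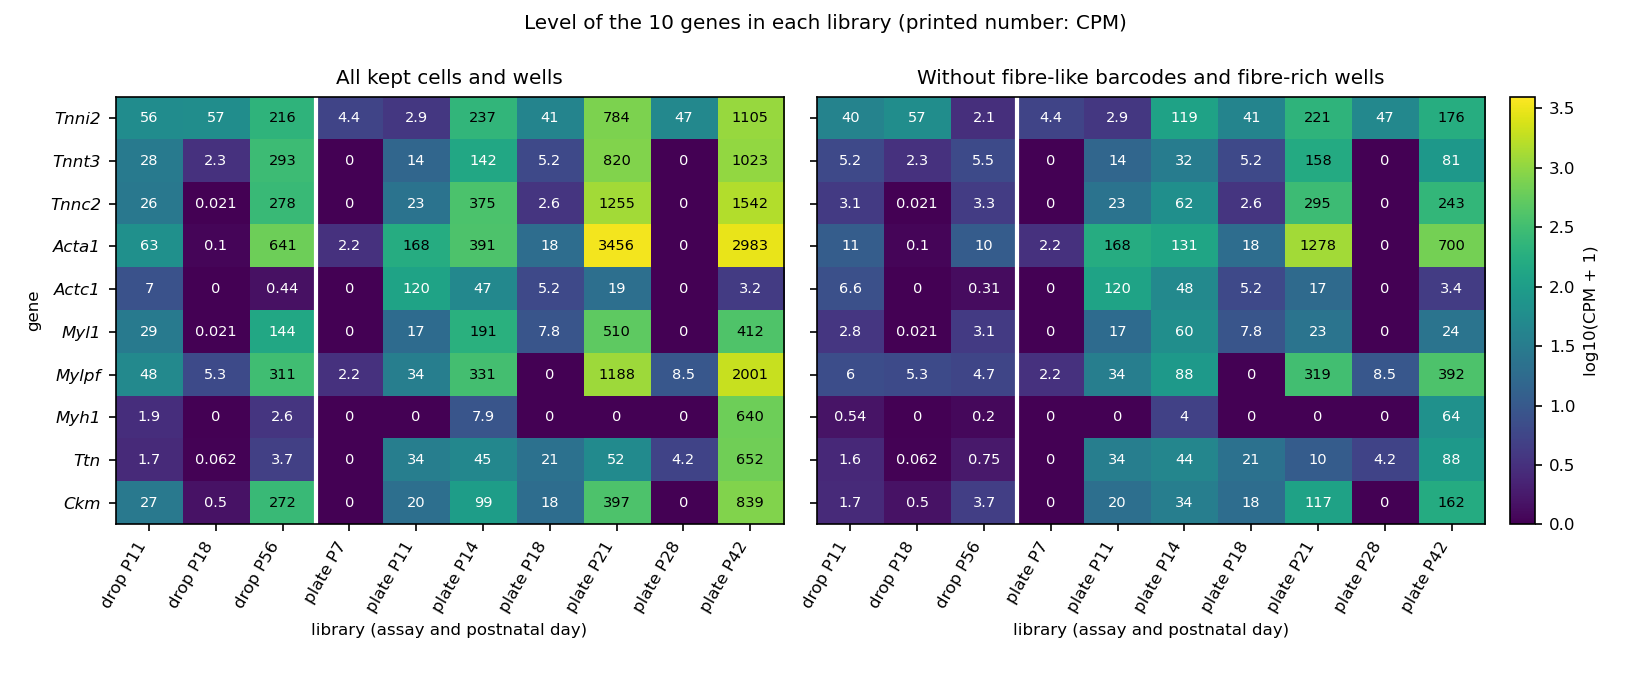
Level of each gene (rows) in each library (columns; droplets left of the white line, plates right), as CPM printed in the cell and as log10(CPM + 1) in colour, for all kept cells and wells (left) and without fibre-like barcodes and fibre-rich wells (right). At P18 in droplets Tnni2 is at 57 CPM while Acta1 is at 0.1, and at P56 Tnni2 is at 2.1 once fibre-like barcodes are left out.

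Outside fibres, Tnni2 was found in cartilage. The cluster led by Matn1, Matn3 and Frzb, called chondrocyte-like from 12 detected and raised chondrocyte markers, held 162 cells at P11 and 399 at P18. Its Tnni2 level was 318 CPM (298 to 339; 936 UMIs) at P11 and 312 (297 to 327; 1778 UMIs) at P18. The cluster led by the mineralisation genes Ibsp, Bglap and Spp1 held 122 and 357 cells, with Tnni2 at 292 CPM (266 to 320; 472 UMIs) and 236 (220 to 254; 779 UMIs). In the cartilage cluster led by Msmp, Smoc1 and Cytl1, Tnni2 was at 4.16 CPM (5 UMIs in 104 cells) and 2.07 (5 UMIs in 234 cells). At P56 the Ibsp-led cluster had 16 cells and 0 Tnni2 UMIs, which by 3 counts allows a share of cells with a UMI of up to 18.8% and sets no limit on cells expressing the gene, and 1 cell carried Matn1.

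Acta1 was close to 0 in the same cells: 1 UMI in the Matn1-led cluster at each of P11 and P18, and 0 in the Ibsp-led cluster at both. Ckm had 0 UMIs in both clusters at both ages. Tnni2 made up 24.0% (22.4% to 25.6%) of Tnni2 plus Acta1 UMIs in the P11 fibre-like barcode and 25.3% (24.8% to 25.8%) in those of P56. In chondrocyte-like cells it made up 99.8% (99.2% to 100.0%; 941 and 2 UMIs) at P11 and 99.9% at P18 (1783 and 1 UMIs). These shares describe 1 library per age, their intervals cover counting error only, and whether fibre RNA has a part in cartilage cells was not tested. With clusters made without the 10 genes and the other muscle genes, the share in chondrocyte-like cells was 99.7% at P11 and 99.9% at P18. There the Tnni2 UMIs of chondrocyte-like cells were 675 at P11 and 1248 at P18, against 941 and 1783. Those of hypertrophic and mineralising-like cells were 735 in 98 cells and 1312 in 305, against 472 in 122 and 779 in 357. At P56 this class held 2 cells, against 16, with 0 Tnni2 UMIs either way. How Tnni2 was split between the 2 cartilage classes therefore depended on whether muscle genes entered the clustering.

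Other cell types were not alike in this share. At P56 the Tnni2 share was 14.8% (9.29% to 21.95%) in tendon-like cells, 17.9% (13.2% to 23.4%) in connective tissue fibroblast-like cells and 17.1% (7.15% to 32.1%) in endothelial-like cells. Over 4783 P56 cells outside the fibre-like, cartilage and Myod1-led clusters, Acta1 made up 30.01% of the UMIs of the set, against 29.6% in the fibre-like barcodes, and Tnni2 6.15% against 10.0%. Their Acta1 level ran from 4.51 to 16.4 CPM over the clusters of at least 50 cells. At P11 the share of Tnni2 was 19.6% (9.82% to 33.1%) in endothelial-like, 38.5% (31.9% to 45.4%) in connective tissue fibroblast-like and 62.8% (54.5% to 70.6%) in immune-like cells, so that connective tissue and immune-like cells stood above the fibre-like barcode. At P18 it was 98.9% (96.2% to 99.9%; 186 and 2 UMIs) in 2869 immune-like cells, so a high share was not limited to cartilage. Their Tnni2 level was 6.25 CPM (5.39 to 7.22), against 312 in the Matn1-led cluster. How much of that is RNA from cartilage cells in the same suspension was not tested.

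**Figure D2:**
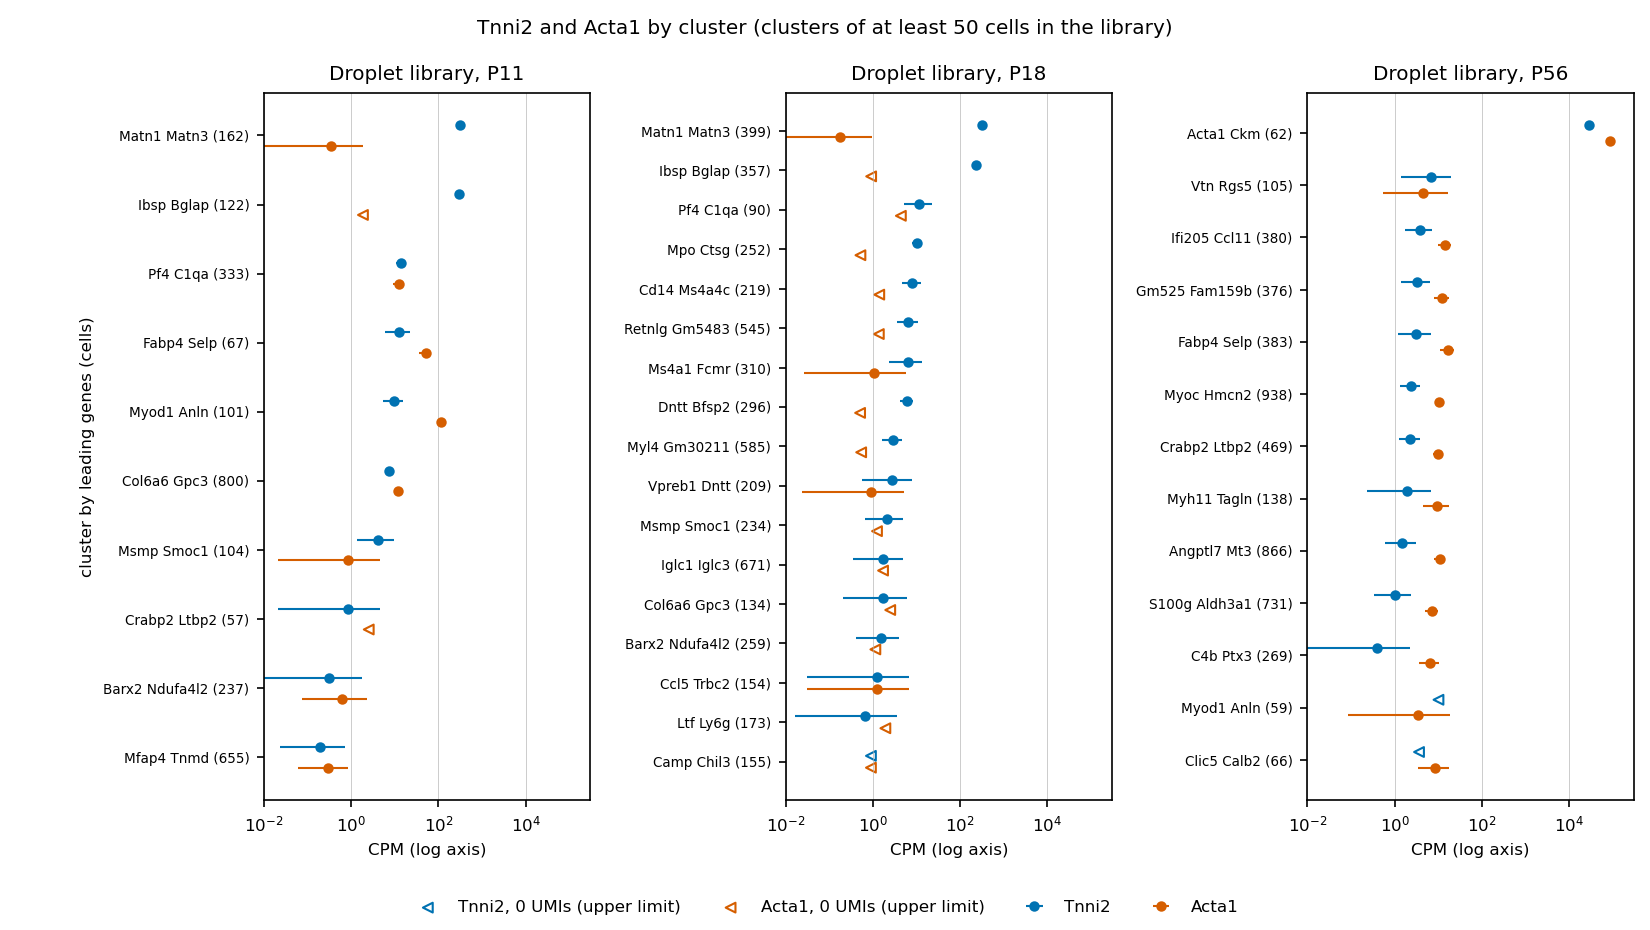
Tnni2 (blue) and Acta1 (orange) in each cluster of at least 50 cells, named by its leading genes with the number of cells, in CPM on a log axis with 95% Poisson intervals. Open triangles give the level of 3 UMIs where there were 0. The Matn1-led and Ibsp-led clusters have Tnni2 between 236 and 318 CPM with Acta1 near or at 0, and most immune-like clusters at P18 have Tnni2 at low levels with 0 Acta1 UMIs.

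Read per cell, Tnni2 was detected in 43 of 162 cells with a Matn1 UMI at P11 (26.5%, exact binomial interval 19.9% to 34.0%) and in 64 of 207 at P18 (30.9%, 24.7% to 37.7%). None of these 43 and 64 cells had an Acta1 or Ckm UMI. Thinned to 2000 UMIs per cell, which left out 2 and 0 shallower cells, the shares were 11.2% (6.81% to 17.2%) and 17.4% (12.5% to 23.3%). For the P18 cells with no Acta1 or Ckm UMI, which include the same 64 Tnni2 cells, the thinned share was 12.6% (8.41% to 17.9%). The intervals do not cover the spread that random thinning adds. In immune-like cells, whose unthinned shares were 15.4% and 4.78%, thinning gave 4.12% and 1.09%. In tendon-like cells it gave 0.114% and 0.357%. Median depths were 17812 and 15415 UMIs in the Matn1-positive cells, 10661 and 6936 in immune-like cells and 14570 and 9789 in tendon-like cells.

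A Matn1 UMI was not needed for Tnni2. Cartilage cells without one had Tnni2 at 242 CPM (226 to 260; 53 of 251 cells) at P11 and 152 CPM (147 of 800 cells) at P18, beside 215 CPM (199 to 233) and 401 CPM in the Matn1-positive cells. The gene was carried by a minority of cells: in the Matn1-led cluster 69.1% of cells at P11 and 72.2% at P18 had none, while 15 and 23 cells had 20 or more UMIs. The tenth of cells with most Tnni2 held 85.6% and 88.5% of its UMIs there, and 84.7% and 83.2% in the Ibsp-led cluster. The highest counts in 1 cell were 149 at P11 and 183 at P18.

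**Figure D3:**
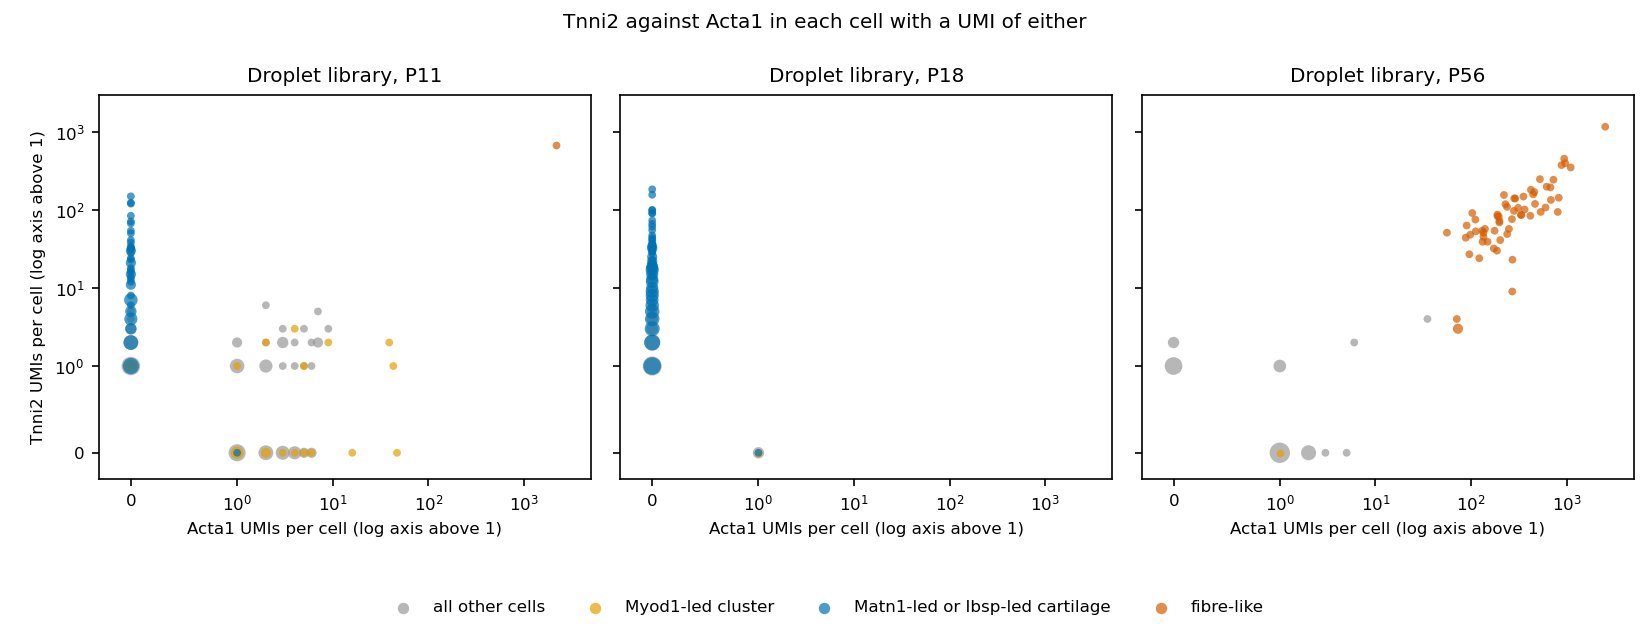
Tnni2 against Acta1 UMIs in each kept droplet cell with a UMI of either gene, on axes that are linear from 0 to 1 and logarithmic above, with larger dots for more cells at 1 position. Cartilage cells (blue) lie at 0 Acta1 up to 183 Tnni2 UMIs at P18, fibre-like barcodes (vermilion) are high for both, and cells of the Myod1-led cluster (orange) have up to 47 Acta1 UMIs beside at most 3 of Tnni2.

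Cartilage cells with 5 or more Tnni2 UMIs were set beside cells of the same cluster and library with none. In the Matn1-led cluster these were 27 and 112 cells at P11 and 56 and 288 at P18. Matn1 itself did not follow Tnni2: 2778 and 2842 CPM at P11, 1211 and 1159 at P18. Ibsp, a bone matrix sialoprotein, was at 2410 CPM in the cells with Tnni2 and 295 in those without at P11, and at 4402 and 838 at P18. Alpl, the phosphatase that frees phosphate for mineral, was at 393 and 65.9 CPM at P11 and 631 and 94.4 at P18.

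Pth1r, the receptor for parathyroid hormone-related protein, was also higher (675 and 227 CPM at P11, 540 and 173 at P18), as was Sfrp5, a secreted Wnt modulator (242 and 88.8; 460 and 110). Matn3 was lower, at 1018 against 1998 CPM at P11 and 843 against 1159 at P18, and so was Epyc, an epiphyseal cartilage proteoglycan, at 23.6 against 123 and 43.5 against 130. Of 7 hypertrophic and mineralising markers, 6 were at least 2-fold higher at P11, where 1.73% of all 2307 genes compared were, and 5 at P18 (1.9% of 4105 genes). None of 12 chondrocyte markers was at least 2-fold higher in this cluster at either age. The cells with Tnni2 were deeper at both ages (median 23770 against 17056 UMIs at P11 and 16700 against 13273 at P18), and at P11 2 of the 27 carried the macrophage transcript C1qa, summed to 100 CPM against 1.09 in cells without Tnni2. The part of depth, of other cells' RNA and of clusters drawn with muscle genes included was not tested.

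In the Ibsp-led cluster the cells with 5 or more Tnni2 UMIs numbered 16 at P11 and 43 at P18, beside 82 and 264 with none, and were again deeper (median 18068 against 11729 UMIs at P11 and 11143 against 8491 at P18). Ibsp was again higher, at 11349 against 2842 CPM and 21635 against 9319, and Alpl at 1100 against 290 and 1661 against 444. Here the cartilage collagen Col2a1 was higher too, at 111347 against 36345 CPM and 66766 against 23184. At least 2-fold higher were 3 of the 7 mineralising markers at P11 (3.03% of genes compared) and 4 at P18 (2.4%), and 4 and 8 of the 12 chondrocyte markers. Bglap, the osteocalcin gene, had 1 UMI against 815 at P11, the latter in 10 cells, and was at 248 against 438 CPM at P18. Acta1, Ckm, Tnnc2 and Myl1 had 0 UMIs in all these cells with Tnni2, in both clusters and at both ages.

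**Figure D4:**
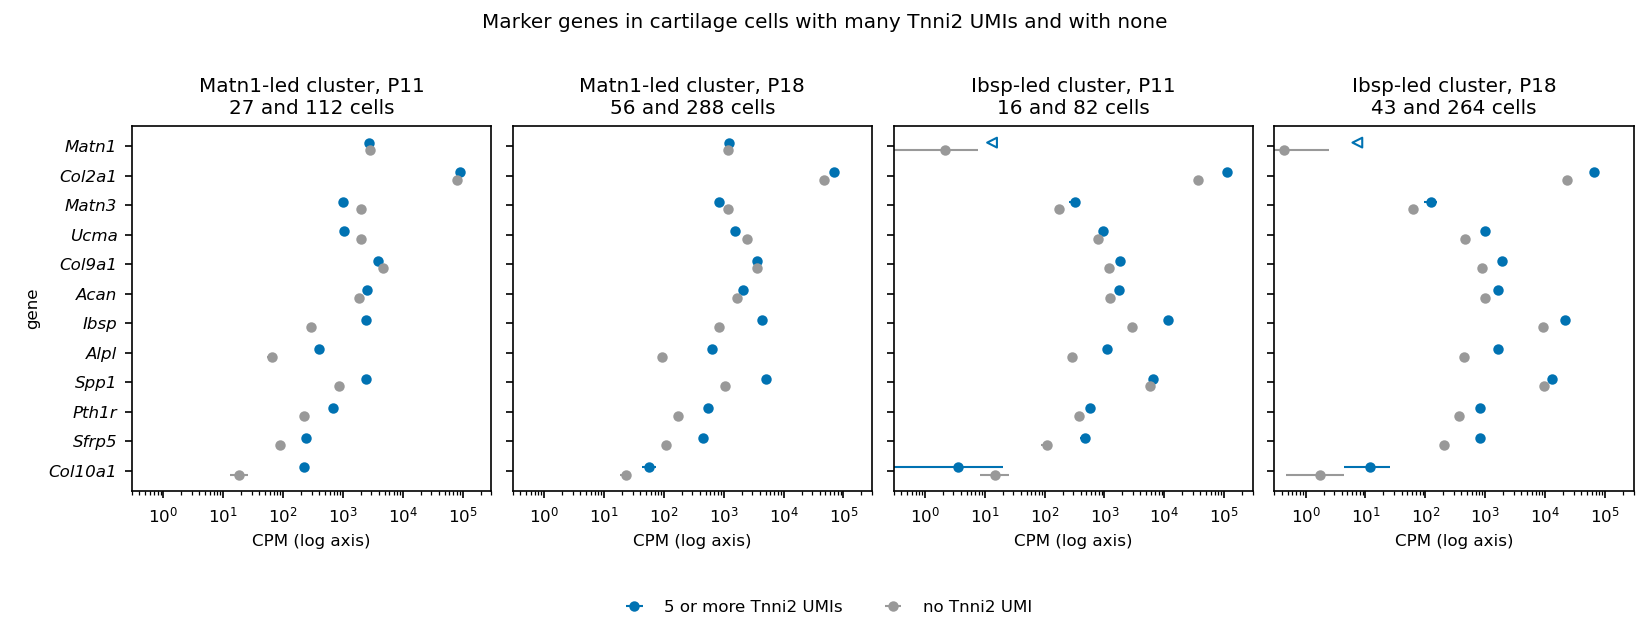
Levels of chondrocyte and mineralisation genes, in CPM on a log axis with 95% Poisson intervals, in cartilage cells with 5 or more Tnni2 UMIs (blue) and none (grey), by cluster and age. Open triangles give the upper limit where there were 0 UMIs. In the Matn1-led cluster Matn1 is at one level in both kinds of cell, while Ibsp is at 2410 against 295 CPM at P11 and 4402 against 838 at P18.

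The second troponin of the set, Tnnt3, was read in the Matn1-led cluster at a lower level than in fibres. It was at 20.4 CPM (15.5 to 26.2, from 60 UMIs in 29 of 162 cells) at P11 and 8.94 (51 UMIs in 37 of 399 cells) at P18. Tnnt3 did not follow Tnni2 over the cartilage clusters. The Msmp-led cluster, with 5 Tnni2 UMIs at P18, had Tnnt3 at 7.44 CPM (4.41 to 11.8) there, and 1 UMI at P11. The Ibsp-led cluster had Tnnt3 at 3.1 CPM at P11 and 3.94 at P18. Kept cells outside the fibre-like and cartilage clusters had 4.14, 0.811 and 5.54 CPM at P11, P18 and P56. Of the 50 Matn1-led cells with Tnni2 at P11, 10 had Tnnt3, as did 8 of the 111 at P18. Its level in cells with 5 or more Tnni2 UMIs and in cells with none was 17.3 and 18.5 CPM at P11, and 4.05 and 11.0 CPM at P18, the last from 4 and 42 UMIs.

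Across 40 groups of cells (cluster by droplet library, at least 50 cells each), the genes whose level was most like that of Tnni2 were Klhl41 (Pearson r 0.87), Casq1 (0.85), Fitm1 (0.76), Dok7 (0.75) and Tnnt3 (0.74), out of 13725 genes. Next came Tpd52l1 (0.74), Car3 (0.71), Pex11a (0.69), Acsl6 (0.67) and Fabp3 (0.67). In the Matn1-led cluster at P18 these were at 22.3, 0, 3.86, 15.4 and 15.6 CPM. Klhl41, a Kelch protein of muscle, and Casq1, the calcium store protein of fast fibres, were read in both cartilage clusters as well: Klhl41 at 4.08 and 6.19 CPM in the Matn1-led and Ibsp-led clusters at P11, from 12 and 10 UMIs, and Casq1 at 5.09 and 6.81, from 15 and 11. Both had 0 UMIs in the Msmp-led cluster at both ages. Acta1 was most like Tnnc2 (0.95), Ckm (0.94) and Myl1 (0.91), then Mb, Cox8b, Ttn, Myh1, Pvalb, Tnnt3 and Mylpf (0.90 to 0.84), and its r with Tnni2 was 0.46. These groups share 3 libraries and their depth, so the values are descriptions.

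Genes of the wider contractile programme were counted from lists. Of 17 other fast-fibre genes, 14 had UMIs in the 62 fibre-like barcodes, led by Tpm1 (7562 UMIs), Tpm2 (5136) and Tcap (2159). In the Matn1-led cluster at P18, 8 of the 17 had UMIs, of which Tpm1 gave 688 and Tpm2 112, while Actn3, Atp2a1, Pvalb and Myh4 had 0. Of 10 muscle energy genes, 10 were read in the fibre-like barcodes at P56, led by Aldoa (6660 UMIs) and Eno3 (1792). In the Matn1-led cluster 6 of the 10 had UMIs at P11 (974 together) and 7 at P18 (1746 together). Pgam2, Ckmt2 and the oxygen carrier Mb had 0 there at both ages. Of 12 slow and cardiac genes, 3 were read in the fibre-like barcodes at P56 (Myoz2 30 UMIs, Tpm3 5 and Atp2a2 2). The Matn1-led cluster had UMIs of 6 of the 12 at P11 (865 together) and 8 at P18 (2915 together). Tropomyosins Tpm1 and Tpm3 and the calcium pump Atp2a2 are also made outside muscle.

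Other members were also read outside the fibre-like barcodes. How much of this was RNA from other cells or from overlapping transcripts was not tested. Actc1, the actin of heart and of immature skeletal muscle, was at 157 CPM (139 to 177) in 101 cells at P11 of a cluster led by Myod1, Anln and Chodl, where 269 of the library's 287 UMIs lay, in 8 cells. This cluster carried 5 of 5 muscle precursor markers, but genes of dividing cells (Anln, Prc1, Cenpf) were among its leading ones, so it is left unnamed. With clusters made without muscle genes, the cluster with these markers was led by Bglap2, Bglap and Myod1. It held 24 P11 cells, with 158 Acta1 and 5 Tnni2 UMIs. Acta1 (193 UMIs) and Ttn (52) were read in the Myod1-led cluster made with all genes, which also held 700 UMIs of Myog, and Tnni2 had 16 UMIs there. Over its 59 cells at P56 the 10 genes had 6 UMIs together. Mylpf at P18 was found in immune-like clusters led by Dntt (92 UMIs, 15.6 CPM) and Myl4 (58 UMIs, 10.4 CPM), and Ckm in the immune-like cluster led by Mpo (21 of 24 UMIs, 3.62 CPM). Myl1 at P56 was at 49.0 CPM (36.6 to 64.2; 42 of 138 cells) in the smooth muscle-like cluster led by Myh11, and Actc1 had 11 UMIs in 4 mural cells led by Vtn. The immune-like cluster led by H2-Eb1 had Tnni2 at 25.5 CPM (20 UMIs) at P11 and 58.0 CPM (38.2 to 84.4; 27 UMIs in 11 of 35 cells) at P18, the latter with 0 Acta1 UMIs.

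On the Gli1-lineage plates, counts of the set differed from plate to plate without a steady course in age. Tnni2 summed to 2, 1, 120, 16, 243, 11 and 349 counts from P7 to P42, which is 4.45, 2.85, 237, 41.4, 784, 46.7 and 1105 CPM. Acta1 summed to 1, 59, 198, 7, 1071, 0 and 942 counts, and Ckm to 0, 7, 50, 7, 123, 0 and 265. P14, P21 and P42 were high and P7, P18 and P28 low for most members. The P28 plate had 0 counts of Acta1, Ckm, Tnnt3, Tnnc2, Myl1, Myh1 and Actc1, with 11 of Tnni2.

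Tnnt3 summed to 0, 5, 72, 2, 254, 0 and 323 counts in age order, Tnnc2 to 0, 8, 190, 1, 389, 0 and 487, Myl1 to 0, 6, 97, 3, 158, 0 and 130, and Mylpf to 1, 12, 168, 0, 368, 2 and 632. Myh1 differed from these: 4 counts at P14, 202 at P42 and 0 elsewhere. Actc1 had its highest sums at P11 (42) and P14 (24), and Ttn had 206 of its counts at P42. Muscle precursor genes moved beside these on the P11 plate, where 8 of 9 were counted and summed to 108 (308 CPM), the highest of the 7 plates, with 37 counts of Msc, 27 of Myog, 14 of Mymk and 13 of Myod1. On the other plates this sum was 4.24 to 100.04 CPM, and its part in the Acta1 and Actc1 counts at P11 was not tested.

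Wells with counts of both Acta1 and Ckm numbered 0, 4, 4, 0, 28, 0 and 33 in age order, or 10.7% of 647 kept wells. With either gene they numbered 1, 30, 43, 8, 83, 0 and 81. Fibre-like wells were few: in 7 wells the 10 genes made up at least 5% of the counts, 1 at P14, 1 at P21 and 5 at P42. The lowest of these had 8.95% and the next well 1.16%. These 7 wells held 60 of 120 Tnni2 counts at P14, 177 of 243 at P21 and 297 of 349 at P42. Without them the 10 genes still made up 0.244% of counts at P21 and 0.193% at P42, beside 0.0621% at P14, 0.0433% at P11 and 0.000889% to 0.0119% at P7, P18 and P28.

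Heavy chains varied among the fibre-rich wells. At P42, 2 of the 5 carried 137 and 44 counts of Myh1 with the calcium buffer Pvalb (48 and 30), while the rest had at most 1 of Myh1, and another carried Myh2 (13), the gene of oxidative fast fibres, with the slow troponin Tnnt1 (4). The P21 well had Myh2 (14) and Tnnt1 (11) and no Myh1. Mitochondrial counts were 0.0488% to 5.56% of these wells.

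**Figure D5:**
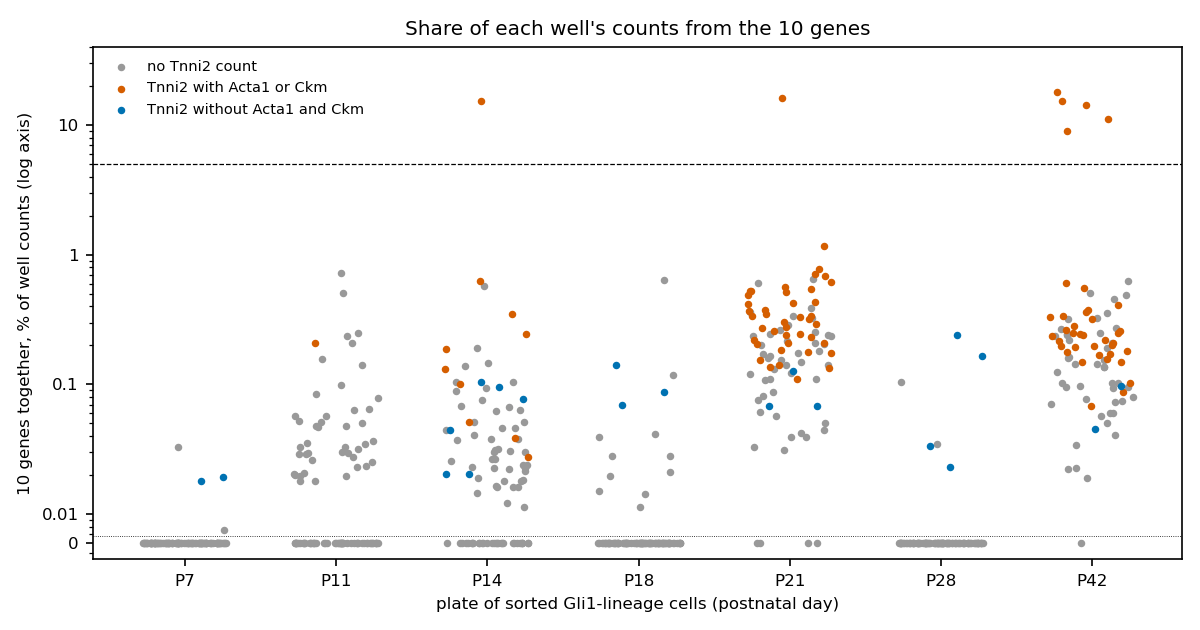
Share of counts from the 10 genes in each kept well (dots), by plate age, on a log axis with wells at 0 placed on the bottom line. The dashed line marks 5%; 7 wells lie above it, and at P21 and P42 nearly all other wells lie above 0, whereas most wells at P7, P18 and P28 are at 0. Wells with Tnni2 are orange where Acta1 or Ckm was also counted and blue where neither was.

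Pooled over the 7 plates, Tnni2 was counted in 39 of 69 wells with both Acta1 and Ckm (56.5%, 44.0% to 68.4%). With 1 of them it was 52 of 177 (29.4%, 22.8% to 36.7%), and with neither 20 of 401 (4.99%, 3.07% to 7.60%). P21 and P42 gave 28 and 33 of the wells with both, but 10 and 5 of those with neither. Within plates, in the same order, Tnni2 was counted in 18 of 28, 24 of 55 and 3 of 10 wells at P21. At P42 these were 19 of 33, 19 of 48 and 2 of 5, and at P14 2 of 4, 8 of 39 and 6 of 51. The pooled shares therefore also reflect differences between plates, which their intervals do not cover. On the P42 plate Tnni2 made up 28.8% (26.0% to 31.6%) of Tnni2 plus Acta1 counts in fibre-rich wells and 20.1% (15.4% to 25.5%) in the others, and at P21 20.4% (17.8% to 23.3%) and 14.8% (11.6% to 18.4%). At P14 these were 31.2% (24.8% to 38.3%) and 47.6% (38.7% to 56.7%), so there the other wells were above the fibre-rich well. At P11 it was 1.67% (0.0422% to 8.94%), from 1 and 59 counts, below every fibre-rich well. At P18 it was 69.6% (47.1% to 86.8%), from 16 and 7 counts, and at P28 100% from 11 and 0.

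The 20 wells with Tnni2 and neither fibre gene were read for cartilage genes. Of these, 8 had 3 to 10 Tnni2 counts, and all 8 had 74 to 203 counts of Col2a1, at least 1 of Ibsp and at least 1 of Spp1. Matn1 was counted in 1 of the 8. The other 12 wells had 1 or 2 Tnni2 counts, and 4 of them had 50 or more of Col2a1. All 3 Tnni2 wells at P18 had Ibsp (24 to 41 counts) and none had any other member. The most Tnni2 outside the fibre-rich wells was 25 counts, in a P14 well with 47 Ibsp counts and a count of Acta1 or Ckm.

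Matn1 was counted at P7 (107), P14 (141) and P21 (1) and was at 0 on the other 4 plates. Of 28 Matn1-positive wells without both fibre genes, 3 had Tnni2 (10.7%, 2.27% to 28.2%). Those with neither fibre gene had it in 3 of 23 (interval 2.78% to 33.6%). Wells with no Matn1 count and neither fibre gene had it in 17 of 378 (2.64% to 7.1%), so the intervals overlap. With 1 fibre gene, Tnni2 was in 0 of 5 Matn1-positive wells and 52 of 172 with no Matn1 count. A difference by Matn1 was not tested. Among wells with neither fibre gene, 9 of 65 with 5 or more Ibsp counts had Tnni2 (13.8%, 6.53% to 24.7%), and 11 of 336 with fewer (3.27%, 1.65% to 5.78%).

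A trend with log2 age was fitted across the 7 plates over all 4390 genes with enough counts, by edgeR's quasi-likelihood test. No gene passed an adjusted p of 0.05 (0% called in either direction; 427 had an unadjusted p under 0.05), and DESeq2 called 109. Of the 10 genes 4 could be tested, and none passed; with no filter on low counts, where 307 genes were called, these 4 did. For each doubling of age Ttn gained 2.35 log2 units (SE 0.50; edgeR adjusted p = 0.296), Tnni2 2.51 (SE 0.84; edgeR adjusted p = 0.486), Mylpf 2.72 (SE 1.10; edgeR adjusted p = 0.486) and Acta1 2.89 (SE 1.34; edgeR adjusted p = 0.513). Their slopes were positive, with a median of 2.62 against 0.00 over all genes, and with the fibre-rich wells left out that of Tnni2 was 1.44 (edgeR adjusted p = 0.502). With the files' layout, which differs between plates, as a term it was 2.74 (edgeR adjusted p = 0.787). Tpm1 and Tpm2 of 17 other fast-fibre genes, Aldoa and Mb of 10 energy genes, and Atp2a2 and Tpm3 of 12 slow genes could be tested, and 0 passed. None of 9 precursor and 7 myotendinous junction genes could be tested.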

How the data were processed

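RNA of sorted enthesis cells was counted in 3 droplet libraries and 7 plates. The authors deposited whole-number counts per gene and barcode or well, with no normalization; 4 plates (P11, P21, P28 and P42) print them with a decimal point, and this layout was tried as a term in the age fit. Reads were placed on mm10, per the submitters' processing notes. Aligner, annotation, strand setting and, for plates, collapsing by molecular identifier are not given in the sources used here. The members and gene lists were chosen with earlier results of these data known. The named genes were the 10 members, up to 4 of each list with the most counts, and the 10 genes most like Tnni2 and Acta1 over groups of droplet cells, by Pearson r of log2(CPM + 1).

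A cell or well was kept from 500 detected genes upward if mitochondrial counts did not pass 10%. Scrublet in scanpy 1.11.5 marked 1, 1 and 3 droplet cells by its own threshold, too few to be taken as working, so the 70, 233 and 211 cells with the highest scores were removed at 0.8% per 1000 cells. No doublet caller was run on plates. Cells were clustered with Leiden (resolution 1, leidenalg 0.10.2, 2000 variable genes, 30 components). A cluster was named X-like from at least 3 raised markers, and clusters are rebuilt, not the study's. In the droplet list 1 of 13 chondrocyte markers, Snorc, was not matched by symbol.

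CPM was computed over kept cells, with exact Poisson and Clopper-Pearson intervals at 95%, which cover counting error only. Cells were thinned to 2000 UMIs with 1 seed. Plate counts were summed per age and fitted in R 4.3.3 with edgeR 4.0.16 (TMM, slope on log2 age, a minimum of 10 counts in 4 or more plates, Benjamini-Hochberg adjustment over all genes tested). DESeq2 1.42.0 was an alternative. Tested on simulated data for this slope, the fit recovered 81.5% of 200 genes changed by 1.5 log2 units, with 10 false among 173 calls over 3969 genes tested. The simulated counts took their spread from the trend over all genes, not from each gene, and held no fibre-rich wells. The recovered share therefore need not hold for the 10 genes. The likeness of genes, comparisons of cells with and without Tnni2 UMIs and the 5% limit for fibre-rich wells are descriptions without a test. Other genes named, such as those at 0 UMIs or the heavy chains of single wells, and the cell types outside cartilage were chosen after their values were seen. Gene positions are from GENCODE vM21 (GRCm38).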

Additional observations from a re-analysis of the deposited data

How the results depend on the processing

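Of 116 values recomputed under another setting, 92 kept their direction and size or side of the threshold, 0 reversed, and 24 did not, as follows. The cause of each was not tested, beyond what a setting removes by construction. Under the stricter cell filter (1000 genes, 5% mitochondrial counts), Tnni2 was at 88.4 CPM at P11 and 161 at P56, and Acta1 at 147 and 473. Under the looser one (200 genes, 20%), Acta1 at P56 was 657. With doublets kept, Tnni2 at P56 was 210.2 CPM, Acta1 at P11 60.6 and at P56 629. With the fibre-like and Myod1-led clusters left out, Tnni2 was at 40.8 CPM at P11 and 2.08 at P56, and Acta1 at 6.24 and 10.1. Thinned to 1000 UMIs, 6.17% of Matn1-positive cells at P11 had Tnni2. With Ckm in place of Acta1, the Tnni2 share in chondrocyte-like cells was 100.0% at P11 and at P18, and in connective tissue fibroblast-like cells 72.6% at P11 and 38.2% at P56. Either Acta1 or Ckm was counted in 38.0% of wells, against 10.7% with both. In the age trend over plates DESeq2 called 109 genes (25 rising, 84 falling) and edgeR 307 with no filter on low counts, where Tnni2, Mylpf, Acta1 and Ttn passed. The other settings called 0, each plate left out in turn included (0 to 0). Leaving out the fibre-rich wells was chosen after seeing the data. No paired analysis was possible because no age has a second library in its assay. Depth limits what a well can show: the median well held 2195 to 4849 counts by plate.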
